A study of Homo sapiens with 64 samples.

Results

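The genes described here are 8 factors that build small nucleolar ribonucleoproteins (snoRNPs): ZNHIT6, ZNHIT3, NUFIP1, RUVBL1, RUVBL2, PIH1D1, RPAP3 and TAF9. They were chosen by name, and all 8 were found in the tables of 26364 genes from C4-2 cells, in the tables of 25207 genes from HEK293T cells and among the 31796 gene names of the SLAM-seq files. C4-2 is a human prostate cancer cell line and HEK293T is a human embryonic kidney line that carries the SV40 large T antigen. FBL, the methyltransferase of box C/D snoRNPs, was knocked down with an siRNA (siFBL) in both lines, NOP56, a core protein of the same particles, was knocked down in HEK293T only (siNOP56), and a control siRNA (siCTRL) was the comparison in each line. Polyadenylated RNA was collected at 0, 3, 6 and 12 h in C4-2 and at 0, 6, 12 and 24 h in HEK293T, with 2 libraries for each siRNA and hour. A further 4 libraries came from siCTRL-treated C4-2 cells, 2 from RNA immunoprecipitated with an antibody to FBL (RIP) and 2 from input RNA, and 16 SLAM-seq libraries came from C4-2 cells given siFBL or siCTRL (8 each) whose RNA was labelled for 24 h with 4-thiouridine at 100 µM and then chased with uridine at 10 mM.

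Box C/D snoRNPs are small RNAs that carry FBL, NOP56, NOP58 and SNU13 and guide 2′-O-methylation of ribosomal RNA. They do not assemble unaided: ZNHIT3 and NUFIP1 hold early complexes of SNU13 and NOP58, ZNHIT6 joins the immature particle, and the R2TP complex, which works with the chaperone HSP90, loads and remodels the core proteins. R2TP consists of the paired ATPases RUVBL1 and RUVBL2, the client adaptor PIH1D1 and the scaffold RPAP3. TAF9 is a histone-fold subunit of the transcription complexes TFIID and SAGA that has also been found with box C/D assembly factors. RUVBL1 and RUVBL2 are shared with the INO80, SRCAP and TIP60 chromatin complexes.

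The members differ in the length and content of their 3′ UTRs, which are shown here because mRNA persistence over hours was the measured quantity of the time courses. In the GENCODE v29 transcripts chosen (GRCh38), the 3′ UTR was 2256 bases in RPAP3, 1957 in NUFIP1, 1250 in ZNHIT6, 418 in ZNHIT3, 290 in RUVBL1, 199 in TAF9, 153 in RUVBL2 and 83 in PIH1D1, against a median of 871 over 18935 genes. On the transcribed strand, the AU-rich pentamer ATTTA occurred 10 times in RPAP3, 7 times in NUFIP1 and once each in ZNHIT3 and ZNHIT6, so 4 of 8 members held it, against 64.3% of all 3′ UTRs. The heptamer TATTTAT, which contains an ATTTA, occurred in NUFIP1 and RPAP3 (28.8% of all 3′ UTRs), and the Pumilio-type motif TGTANATA occurred in ZNHIT6 and NUFIP1 (23.4% of all 3′ UTRs). These windows run 5′ to 3′ on the minus strand, which is the transcribed strand of all 3 genes, with the motif in capitals:
NUFIP1 heptamer, chr13:44940938-44940967: ttttttctttgTATTTATtttaatgtattg
NUFIP1 Pumilio motif, chr13:44940700-44940729: aggtttcgaaaTGTAAATAttccttattta
NUFIP1 Pumilio motif, chr13:44939537-44939566: tggtcaatattTGTAAATAttctatgagtt
ZNHIT6 Pumilio motif, chr1:85652938-85652967: gtatgtattaaTGTATATAcatggcttaac
RPAP3 heptamer, chr12:47662996-47663025: tgtatttttagTATTTATgttgaaagaaag

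A motif match is a description of the letters and was not tested as a site.

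The steady level of each mRNA was taken in siCTRL cells at 0 h. CPM (read counts scaled to a common library size, here with TMM factors) was divided by the length in kilobases of the gene's exons, merged over its transcripts. In C4-2 cells the order was TAF9 (82.0 ± 6.19 CPM per kb), PIH1D1 (74.5 ± 1.93), RUVBL1 (69.5 ± 7.09), RUVBL2 (60.2 ± 3.13), ZNHIT3 (11.9 ± 1.23), RPAP3 (9.88 ± 1.67), NUFIP1 (5.88 ± 0.0521) and ZNHIT6 (4.68 ± 0.362; SD, n = 2 each). The first 4 of these each differed from the next of the 4 by less than their summed SDs, as did ZNHIT3 from RPAP3, so only the step to ZNHIT3 and the last 2 steps exceeded that spread. In HEK293T cells RUVBL2 was highest (99.9 ± 3.72 CPM per kb), then PIH1D1 (43.7 ± 0.382), RUVBL1 (40.03 ± 0.758), TAF9 (31.9 ± 1.31), RPAP3 (9.13 ± 0.922), ZNHIT3 (7.33 ± 0.0329), NUFIP1 (7.09 ± 0.291) and ZNHIT6 (5.63 ± 0.200; SD, n = 2 each). Here ZNHIT3 and NUFIP1 were the only neighbours within their summed SDs. In both lines the ATPases, PIH1D1 and TAF9 stood above the scaffold RPAP3 and the zinc finger and NUFIP1 factors. The tables of the 2 lines were scaled separately, so the levels are compared within each line. The merged length was 6197 bases for ZNHIT6 and 2909 for RUVBL1, against 2797 and 1761 in the transcripts used for the 3′ UTRs. The order of the members depends on the length used, and was not recomputed with single transcripts.

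Depth, in units of 1e+06 counts per library, was 22.9 to 33.3 for RIP and input, 79 to 106.1 for the C4-2 time course and 16 to 19.9 for the HEK293T time course, and the SLAM-seq libraries had 14.3 to 60.3 in mapped reads. The knockdowns were visible in their targets: at 0 h FBL was at 3.63 and 2.76 CPM in siFBL against 305 and 265 CPM in siCTRL C4-2 cells, and at 17.7 and 15.5 CPM in siFBL against 322 and 313 CPM in siCTRL HEK293T cells. NOP56 was at 91.9 and 76.3 CPM in siNOP56 against 206 and 204 CPM in siCTRL HEK293T cells at 0 h, a shallower depletion. All 7 prostate markers averaged at least 1 CPM in C4-2 (summed level 5208 to 8990 CPM) and 3 of 7 did in HEK293T (5.36 to 33.3 CPM), while 4 of 4 HEK293T markers passed that level in HEK293T and 2 of 4 in C4-2. Nothing in the labels says that the 2 libraries of a group came from separate cultures, so the p-values measure only the spread between these samples.

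The RIP comparison asks which mRNAs were carried along with FBL; no library with a control antibody was among those used, so enrichment is relative to input. RUVBL1 and RPAP3 mRNAs were 2.98-fold and 2.35-fold higher in RIP than in input, while the other 6 members were lower in RIP, most of all TAF9. The 2 enriched members are an ATPase and the scaffold of R2TP; the partner ATPase RUVBL2 and the adaptor PIH1D1 were on the other side. This split was seen among libraries in which most genes differed: 82.9% of 14967 genes were called at an adjusted p below 0.05, 39.9% higher and 43% lower, so a call in this comparison is near the background for any gene and the direction and size are what the values below show.

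RUVBL1 was at 156 and 167 CPM in RIP, against 53.8 and 54.4 CPM in input. That is a log2 difference of 1.58 (SE 0.06, edgeR adjusted p = 4.33e-20), and both RIP libraries lay far above both inputs. RPAP3 was at 59.5 and 56.8 CPM in RIP, against 25.0 and 24.4 CPM in input. Its log2 difference was 1.23 (SE 0.07, edgeR adjusted p = 5.11e-16), again without overlap. For scale, the mRNA of NOP56 had a log2 difference of 1.83 and that of FBL itself one of 0.33.

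TAF9 was at 31.7 and 35.6 CPM in RIP, against 123 and 126 CPM in input, and had the lowest value of the 8 members, a log2 difference of -1.89 (SE 0.07, edgeR adjusted p = 3.78e-21). PIH1D1 was at 26.4 and 28.3 CPM in RIP, against 66.5 and 71.4 CPM in input (log2 -1.33, SE 0.07, edgeR adjusted p = 8.89e-17). RUVBL2 was at 61.2 and 70.4 CPM in RIP, against 113 and 116 CPM in input (log2 -0.80, SE 0.07, edgeR adjusted p = 3.18e-12). These 3 abundant mRNAs were lower in both RIP libraries than in either input.

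Among the early factors, NUFIP1 was at 6.20 and 7.14 CPM in RIP, against 12.4 and 14.0 CPM in input (log2 -0.98, SE 0.12, edgeR adjusted p = 8.27e-09). ZNHIT6 was at 22.9 and 19.0 CPM in RIP, against 33.2 and 31.2 CPM in input (log2 -0.62, SE 0.09, edgeR adjusted p = 1.51e-07). ZNHIT3 was at 4.00 and 3.99 CPM in RIP, against 4.84 and 6.27 CPM in input (log2 -0.48, SE 0.16, edgeR adjusted p = 0.00782). The ZNHIT3 groups do not overlap either, but the gap is small beside the spread of its inputs: its adjusted p was 0.138 with DESeq2, and without input replicate 2 its log2 difference was -0.28 (edgeR adjusted p = 0.181).

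The scaling matters here, because TMM factors were 1.38 to 1.39 for the inputs and 0.72 for the RIP libraries. With total counts alone every value is lower by 0.942 and 21.1% of the called genes were higher in RIP, against 48.1% with TMM: RUVBL1 and RPAP3 stayed higher in RIP (log2 0.63 and 0.29, edgeR adjusted p = 1.8e-10 and 0.000536) and the other 6 ranged from -2.83 to -1.42. The median of the 8 members was -0.71, beside -0.11 over all genes tested. RPAP3 is the longest of the 8 transcripts (4370 bases), and RUVBL1 (1761 bases) is shorter than NUFIP1 (3492), ZNHIT6 (2797) and RUVBL2 (2009), which were lower in RIP; the part of length in these values was not tested.

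**Figure D1:**
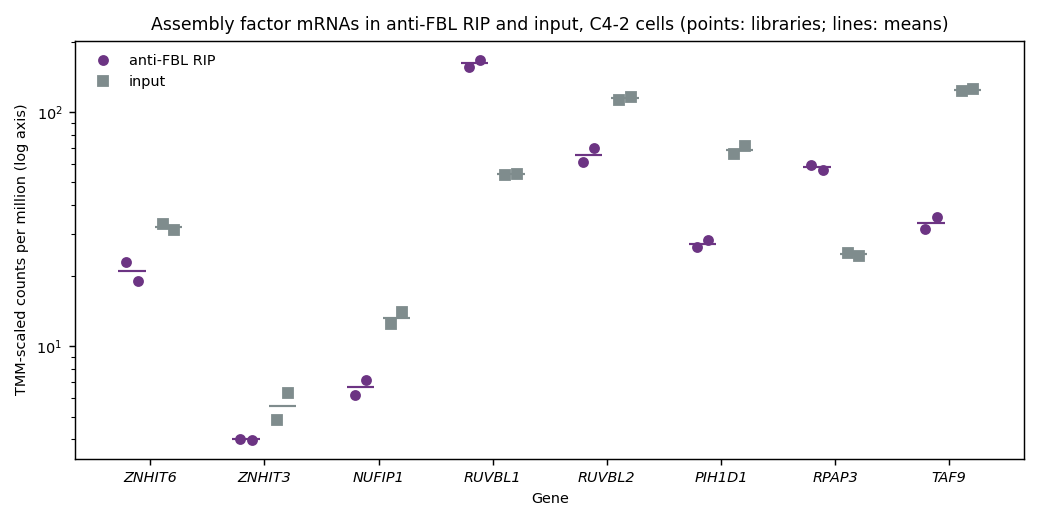
TMM-scaled CPM (log axis) of the 8 members in each RIP and input library of siCTRL C4-2 cells; points are libraries, 2 per group, and short lines their means. RUVBL1 and RPAP3 lie above their inputs and the other 6 members below, with TAF9 at 31.7 and 35.6 CPM in RIP against 123 and 126 CPM in input.

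The C4-2 time course asks how the mRNA levels differ after FBL depletion at each hour. PIH1D1 and NUFIP1 mRNAs were called lower in siFBL than in siCTRL cells at 0 h, and no member was called higher at any hour. At 0 h 2 of 8 members were lower, beside 6.87% of 23437 genes called lower. At 3 h 2 of 8 were lower (NUFIP1 and RUVBL1), beside 8.94% of all genes called lower, and at 6 h and 12 h only PIH1D1 was lower, beside 6.92% and 10.7%. The general level of these libraries moved too: among 10027 expressed genes, those averaging 5 CPM or more, the median log2 difference was -0.26 at 0 h and 76.7% were negative, while the 8 members had a median of -0.25 and all 8 were negative. Of these expressed genes, 15.1%, 19.1%, 14.4% and 22.1% were called lower at 0, 3, 6 and 12 h, against 2, 2, 1 and 1 of the 8 members, which all average at least 5 CPM; these counts are near that background. At 3, 6 and 12 h the members' medians were -0.42, -0.32 and -0.38, against -0.24, -0.17 and -0.25 for the 10027 genes, so a small negative value of a member is also what the typical expressed gene had. The scaling sets part of this: with total counts alone the values were higher by 0.253, 0.204, 0.134 and 0.213 at 0, 3, 6 and 12 h, and 58.2% of the genes called at 0 h were higher, against 19% with TMM (55.3% against 25% at 3 h, 49.5% against 23.6% at 6 h, 49.8% against 20.4% at 12 h). Under that scaling PIH1D1 stayed lower and called at 0, 6 and 12 h (log2 -0.52, -0.47 and -0.62) and NUFIP1 at 0 and 3 h (-0.53 and -0.45), whereas ZNHIT6, ZNHIT3, RPAP3 and TAF9 turned positive at 0 h (0.05 to 0.23, none called).

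PIH1D1, the adaptor that binds phosphorylated R2TP clients, was called at 3 of the 4 hours. At 0 h it was at 60.4 and 51.7 CPM in siFBL, against 98.2 and 94.6 CPM in siCTRL (log2 -0.78, SE 0.14, edgeR adjusted p = 0.00233). At 3 h it was at 81.2 and 74.8 CPM in siFBL, against 103 and 108 CPM in siCTRL (log2 -0.44, edgeR adjusted p = 0.0551, not called). At 6 h it was at 81.5 and 82.9 CPM in siFBL, against 127 and 123 CPM in siCTRL (log2 -0.61, edgeR adjusted p = 0.0123). The siFBL libraries lay below the siCTRL libraries at each of these hours. At 12 h it was at 98.0 and 74.2 CPM in siFBL, against 149 and 157 CPM in siCTRL (log2 -0.83, edgeR adjusted p = 0.00096). The calls at 0 h and 12 h held with each library left out in turn. The call at 6 h did not: adjusted p was 0.101 without siCTRL library A, 0.0791 without siCTRL library B, 0.0623 without siFBL library B and 0.0648 with only the groups compared in the fit.

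NUFIP1, the platform that brings SNU13 and NOP58 together, was at 11.2 and 12.7 CPM in siFBL, against 20.7 and 20.4 CPM in siCTRL at 0 h (log2 -0.78, SE 0.18, edgeR adjusted p = 0.0136). At 3 h it was at 11.7 and 11.1 CPM in siFBL, against 17.1 and 18.8 CPM in siCTRL (log2 -0.66, SE 0.18, edgeR adjusted p = 0.0281). Its siFBL libraries were lower than the siCTRL libraries at all 4 hours, but at 6 h (10.4 and 12.8 against 16.7 and 14.2 CPM; log2 -0.42) and 12 h (14.3 and 11.7 against 17.4 and 19.5 CPM; log2 -0.50) edgeR's adjusted p was 0.189 and 0.0839. The 0 h call was lost without siCTRL library A (log2 -0.77, edgeR adjusted p = 0.113), siCTRL library B (-0.79, 0.0635) or siFBL library A (-0.70, 0.112). The 3 h call was lost whichever library was left out, with log2 differences of -0.73 to -0.59 and edgeR adjusted p of 0.0826 to 0.2.

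RUVBL1 was at 159.8 and 155 CPM in siFBL, against 217 and 188 CPM in siCTRL at 0 h (log2 -0.36, edgeR adjusted p = 0.0877). At 3 h it was at 218 and 194 CPM in siFBL, against 265 and 280.3 CPM in siCTRL (log2 -0.40, SE 0.12, edgeR adjusted p = 0.0447). The groups did not overlap at either hour, but the 3 h call held only with a replicate block and was lost under every other alternative run for it, including each library left out (log2 -0.49 to -0.29, edgeR adjusted p = 0.0702 to 0.337). At 6 h it was at 251 and 268 CPM in siFBL, against 337 and 314 CPM in siCTRL, and at 12 h at 348 and 292 CPM in siFBL, against 409.6 and 415 CPM in siCTRL (edgeR adjusted p = 0.126 and 0.0646). Its partner RUVBL2 was at 89.1 and 117.3 CPM in siFBL, against 131 and 122 CPM in siCTRL at 0 h, and its log2 differences of -0.39 to -0.09 over the 4 hours did not pass the test.

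ZNHIT6, the zinc finger factor of the immature particle, was at 25.3 and 24.7 CPM in siFBL, against 30.6 and 27.4 CPM in siCTRL at 0 h, and its log2 differences were -0.21, -0.58, -0.48 and -0.50 at 0, 3, 6 and 12 h, none called. At 12 h its siFBL libraries stood apart from each other, at 17.3 and 9.30 CPM, against 19.5 and 18.1 CPM in siCTRL. ZNHIT3 was at 15.6 and 19.7 CPM in siFBL, against 19.2 and 16.6 CPM in siCTRL at 0 h, and its log2 differences lay between -0.15 and 0.04. RPAP3 was at 32.6 and 43.6 CPM in siFBL, against 48.3 and 38.0 CPM in siCTRL at 0 h; its lowest log2 difference was -0.51 at 3 h (edgeR adjusted p = 0.0756), where 45.3 and 43.4 CPM in siFBL stood against 62.01 and 64.2 CPM in siCTRL. TAF9 was at 134 and 148 CPM in siFBL, against 161 and 145 CPM in siCTRL at 0 h, with log2 differences of -0.25 to -0.02 and overlapping groups at 0 h. Without siFBL library A at 12 h, 5 members instead of 1 were called lower at that hour (ZNHIT6, NUFIP1, RUVBL1, PIH1D1 and RPAP3).

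The TAF9 locus also encodes the adenylate kinase AK6, whose exons overlap, and the sources used here do not state whether counting used strand, so their reads may not be fully separated. AK6 had a log2 difference of -1.18 in C4-2 at 12 h (edgeR adjusted p = 0.0247) and -0.54 at 0 h (0.311), and the paralogue TAF9B one of -0.59 at 0 h (0.0314). NUFIP1 and TAF9 have processed copies (NUFIP1P, TAF9P1, TAF9P2 and TAF9P3) that could take or give reads. RUVBL1 overlaps RUVBL1-AS1, RUVBL2 overlaps LHB, PIH1D1 overlaps ALDH16A1 and ZNHIT3 overlaps MYO19.

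**Figure D2:**
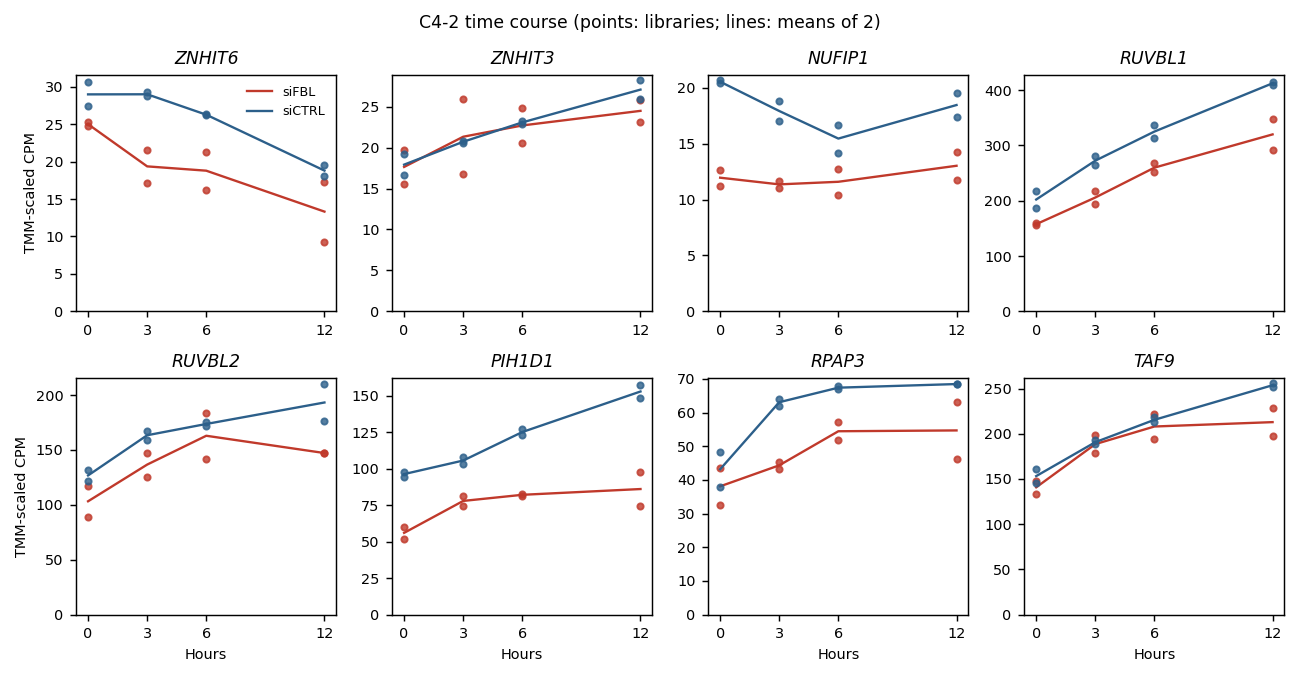
TMM-scaled CPM of the 8 members against hours in C4-2 cells with siFBL or siCTRL; points are the 2 libraries of each group and lines join their means. PIH1D1 and NUFIP1 siFBL libraries lie below the siCTRL libraries at each hour, while TAF9 and ZNHIT3 overlap at 0 h.

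In HEK293T cells the same question was asked with siFBL and siNOP56. TAF9 and RPAP3 mRNAs were called higher than siCTRL in siFBL cells at 6, 12 and 24 h. In siNOP56 cells TAF9 was called higher at 6, 12 and 24 h, and RPAP3 at 12 and 24 h. At 24 h RUVBL2 was also called higher in both knockdowns, RUVBL1 higher with siNOP56, and PIH1D1 lower with siFBL. No member was called by edgeR at 0 h. TAF9 (log2 0.50 with siFBL and 0.62 with siNOP56) and RPAP3 (0.54 and 0.46) already lay above siCTRL there. These calls compare siRNAs within an hour and are not changes over the hours. Whether same-numbered libraries are tied across the hours was not tested, so calls at several hours may not be independent of each other. Both knockdowns were set against the same siCTRL libraries, so their results are not independent of each other, and a high or low siCTRL library moves both.

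In siFBL cells 0 of 8 members were called by edgeR at 0 h (2 at an unadjusted p below 0.05, RPAP3 and TAF9, and 1 by DESeq2), beside 1.74% of 14939 genes. At 6 h 2 of 8 were higher, beside 3.33% of all genes, and at 12 h 2 of 8, beside 6.34%. At 24 h 3 of 8 were higher and 1 lower, where 15.1% of all genes were called, 8.96% higher and 6.11% lower. In siNOP56 cells 0 of 8 were called by edgeR at 0 h (TAF9 at an unadjusted p below 0.05, and 1 by DESeq2), beside 0.187% of all genes, and 1, 2 and 4 of 8 were higher at 6, 12 and 24 h, beside 0.368%, 0.864% and 3.58% called higher. The median log2 difference of the members was 0.26, 0.08, 0.18 and 0.35 with siFBL and 0.30, 0.36, 0.43 and 0.51 with siNOP56. The medians of the 10358 genes averaging 5 CPM or more were 0.03 to 0.08. Of these genes 4.50%, 8.56% and 12.2% were called higher with siFBL at 6, 12 and 24 h. With siNOP56 the shares called higher were 0.483%, 1.17% and 4.96%. With total counts alone the values were lower by 0.03 to 0.11, and 45.9% of the genes called at 24 h with siFBL were higher, against 59.4% with TMM, and 40.5% with siNOP56, against 67.4%.

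RPAP3, the scaffold that recruits HSP90 to R2TP, was at 54.4 and 61.5 CPM in siFBL and 50.4 and 59.2 CPM in siNOP56, against 37.1 and 42.8 CPM in siCTRL at 0 h. At 6 h it was at 72.3 and 75.2 CPM in siFBL and 56.6 and 77.5 CPM in siNOP56, against 39.7 and 43.7 CPM in siCTRL. At 12 h it was at 74.3 and 77.6 CPM in siFBL and 54.7 and 84.8 CPM in siNOP56, against 30.9 and 36.6 CPM in siCTRL. Every knockdown library lay above both siCTRL libraries at each of these hours. At 24 h it was at 69.2 and 73.7 CPM in siFBL and 50.9 and 80.7 CPM in siNOP56, against 31.8 and 36.4 CPM in siCTRL. For siFBL the log2 differences were 0.54 (edgeR adjusted p = 0.214), 0.82 (0.0378), 1.17 (0.00514) and 1.07 (0.00544) at 0, 6, 12 and 24 h. For siNOP56 they were 0.46, 0.69 (edgeR adjusted p = 0.17), 1.05 (0.0292) and 0.95 (0.0246). The siNOP56 libraries differed more from each other than the siFBL libraries did.

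TAF9, the histone-fold subunit, was above siCTRL in both knockdowns. At 0 h it was at 80.7 and 87.3 CPM in siFBL and 79.8 and 103 CPM in siNOP56, against 61.3 and 57.9 CPM in siCTRL (edgeR adjusted p = 0.0544 and 0.052). At 6 h it was at 141 and 140.4 CPM in siFBL and 139 and 151 CPM in siNOP56, against 97.3 and 94.5 CPM in siCTRL, with log2 differences of 0.55 (edgeR adjusted p = 0.0175) and 0.60 (0.0407). At 12 h it was at 177 and 163 CPM in siFBL and 175 and 188 CPM in siNOP56, against 124 and 111 CPM in siCTRL, with log2 differences of 0.53 (edgeR adjusted p = 0.0134) and 0.63 (0.0222). No TAF9 group with a knockdown overlapped siCTRL at any hour. At 24 h it was at 226 and 212 CPM in siFBL and 220.1 and 224 CPM in siNOP56, against 134 and 125 CPM in siCTRL, with log2 differences of 0.76 (SE 0.13, edgeR adjusted p = 0.00134) and 0.78 (SE 0.13, 0.00409). AK6 and TAF9B were not called in any HEK293T comparison, with log2 differences of -0.38 to -0.01 and -0.24 to 0.13.

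PIH1D1 was below siCTRL at every hour with siFBL. At 24 h it stood at 121 and 84.2 CPM in siFBL and 157 and 115 CPM in siNOP56, against 186 and 182 CPM in siCTRL. The log2 difference was -0.84 with siFBL (SE 0.21, edgeR adjusted p = 0.0146) and -0.44 with siNOP56 (0.25, not called). Over the 4 hours the siFBL values were -0.39, -0.53, -0.63 and -0.84. At 0 h no siFBL library reached siCTRL (44.8 and 41.5 CPM in siFBL, against 56.8 and 56.1 CPM in siCTRL).

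The ATPases differed at the last hour. RUVBL1 was at 310.3 and 274 CPM in siFBL and 341 and 299 CPM in siNOP56, against 233 and 231 CPM in siCTRL at 24 h, with log2 differences of 0.33 (edgeR adjusted p = 0.072) and 0.46 (SE 0.12, 0.0355). RUVBL2 was at 229.9 and 320.5 CPM in siFBL and 301 and 294 CPM in siNOP56, against 205 and 199.9 CPM in siCTRL at 24 h, with log2 differences of 0.44 (SE 0.14, edgeR adjusted p = 0.0426) and 0.55 (SE 0.14, 0.033). At 0 h both were close to siCTRL: RUVBL1 was at 119 and 110.1 CPM in siFBL and 123 and 130.1 CPM in siNOP56, against 118 and 115 CPM in siCTRL.

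NUFIP1, ZNHIT6 and ZNHIT3 were not called at any hour in HEK293T. NUFIP1 was at 31.5 and 39.0 CPM in siFBL and 29.99 and 40.6 CPM in siNOP56, against 24.0 and 25.5 CPM in siCTRL at 0 h, a log2 difference of 0.51 in each knockdown. ZNHIT6 was at 49.0 and 32.9 CPM in siFBL and 47.9 and 52.4 CPM in siNOP56, against 35.8 and 34.0 CPM in siCTRL at 0 h, and its siFBL library 1 was the higher of the siFBL pair at all 4 hours. Its siNOP56 log2 differences were 0.52, 0.49, 0.56 and 0.72 (edgeR adjusted p = 0.499, 0.453, 0.333 and 0.175). ZNHIT3 was at 10.8 and 16.03 CPM in siFBL and 12.3 and 11.4 CPM in siNOP56, against 11.0 and 11.0 CPM in siCTRL at 0 h. Set directly against siNOP56 at 0 h, siFBL differed in 0 of 8 members by edgeR (0 at an unadjusted p below 0.05 and 0 by DESeq2), beside 0.0201% of all genes called.

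The HEK293T calls rest on few libraries. With only the compared groups in the fit none of the members' HEK293T calls passed, and 0 to 5 of all genes did. TAF9 at 24 h held with each library left out for siFBL, and for siNOP56 was lost without siCTRL library 2 (log2 0.73, edgeR adjusted p = 0.0719). RPAP3 with siFBL was lost at 12 h and 24 h without siCTRL library 1 (log2 1.05 and 0.98, edgeR adjusted p = 0.0705 and 0.0701). PIH1D1 with siFBL at 24 h was lost without siCTRL library 1, siCTRL library 2 or siFBL library 2 (log2 -0.86 to -0.60, edgeR adjusted p = 0.0777 to 0.178). RUVBL2 with siFBL at 24 h was lost without those same libraries, with total counts alone (0.0671) and with no low-count filter (0.076), and was 0.18 without siFBL library 2 (edgeR adjusted p = 0.508). RUVBL1 and RUVBL2 with siNOP56 at 24 h were lost whichever library was left out (edgeR adjusted p = 0.0872 to 0.19 and 0.0567 to 0.177) and with total counts alone (0.0891 and 0.056). RPAP3 with siNOP56 was lost at 12 h and 24 h without either siCTRL library or without siNOP56 library 2 (0.58 at 24 h without the last, edgeR adjusted p = 0.315). The other calls of TAF9 and RPAP3 at 6 and 12 h were each lost without at least 3 of the 4 libraries, with log2 differences of 0.46 to 0.89.

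**Figure D3:**
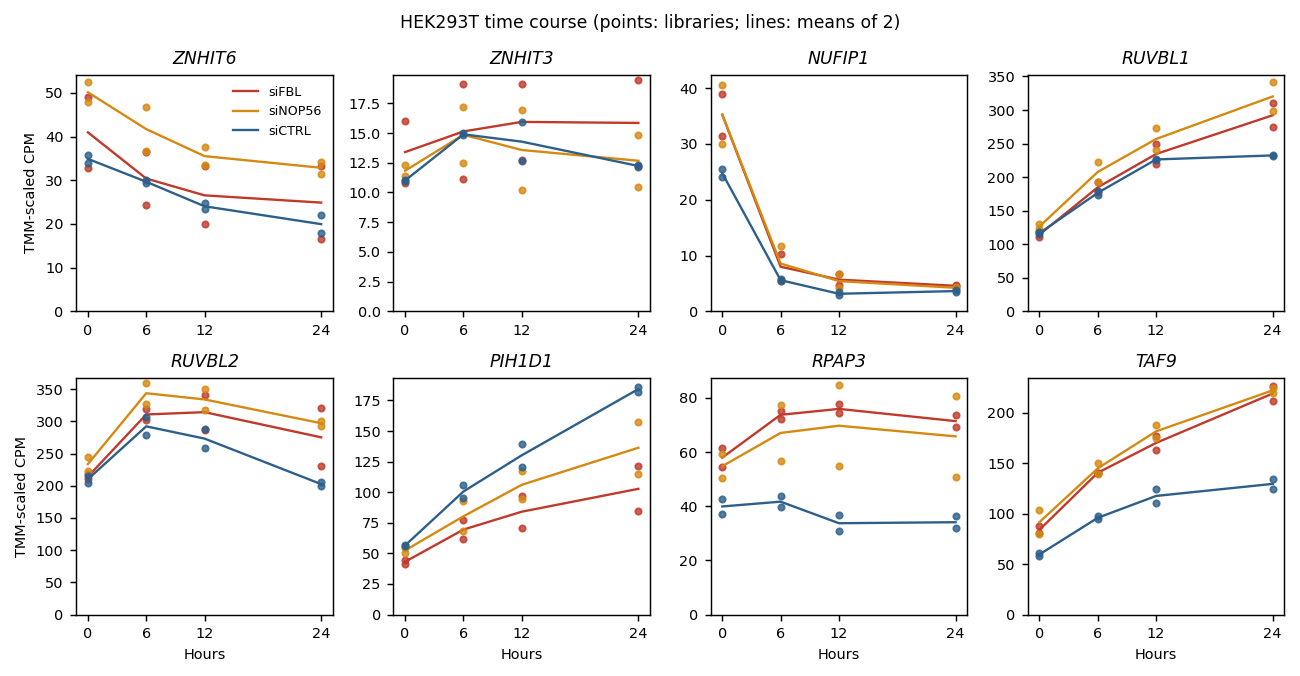
TMM-scaled CPM of the 8 members against hours in HEK293T cells with siFBL, siNOP56 or siCTRL; points are the 2 libraries of each group and lines join their means. TAF9 and RPAP3 lie above siCTRL in both knockdowns, and NUFIP1 is lower at 6 h than at 0 h in all 3 groups.

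The siFBL effects of the 2 lines were compared at 0 h in a joint fit, as the C4-2 effect minus the HEK293T effect. NUFIP1 was the member called: its interaction was -1.11 (SE 0.30, edgeR adjusted p = 0.0234), with a C4-2 log2 difference of -0.78 and a HEK293T one of 0.51. Of 8 members 1 was called, with the C4-2 effect lower, beside 4.55% of 20558 genes called in that direction. TAF9 had an interaction of -0.43 (SE 0.14, edgeR adjusted p = 0.0675; called with DESeq2, no low-count filter or a replicate block), RPAP3 of -0.54 (SE 0.20, 0.117), and the other 5 were between -0.26 and -0.12. The NUFIP1 call was lost without HEK293T siCTRL library 1 (-1.07, edgeR adjusted p = 0.107), siCTRL library 2 (-1.155, 0.0777) or siFBL library 2 (-0.96, 0.126). With total counts alone the NUFIP1 interaction was -0.95 (edgeR adjusted p = 0.0388) and 60.4% of the called genes had the C4-2 effect higher, against 38.2% with TMM. Cell line, table and depth cannot be told apart in this comparison.

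**Figure D4:**
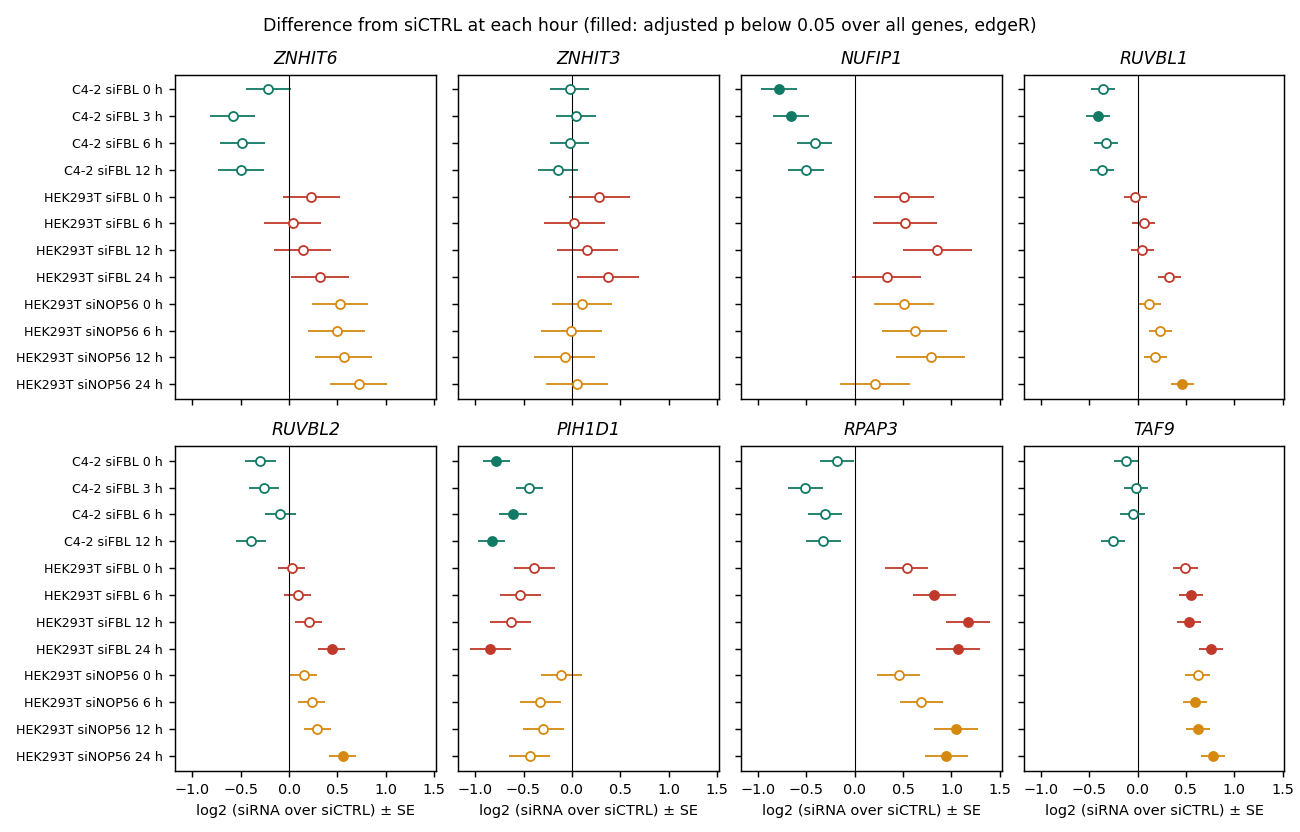
Log2 differences (knockdown minus siCTRL, with SE) of the 8 members at each hour in C4-2 siFBL, HEK293T siFBL and HEK293T siNOP56; filled points have an edgeR adjusted p below 0.05. In C4-2 the values with TMM scaling (with total counts alone, 4 members were positive at 0 h) are at or below 0 except ZNHIT3 at 3 h (0.04), while in HEK293T TAF9 and RPAP3 are above 0 and PIH1D1 is below.

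Over the hours the members took different courses, given here as percent of the 0 h mean of the same siRNA. NUFIP1 in HEK293T was the lowest: it was at 22.7%, 16.1% and 12.98% at 6, 12 and 24 h in siFBL, 24.3%, 15.4% and 12.0% in siNOP56, and 22.6%, 12.7% and 14.7% in siCTRL. In C4-2 the same mRNA, with the AU-rich heptamer printed above, was at 95.0%, 96.9% and 109% of its 0 h level at 3, 6 and 12 h in siFBL, and 87.2%, 75.2% and 89.8% in siCTRL. ZNHIT6 was at 53.3% in siFBL and 64.9% in siCTRL C4-2 cells at 12 h, and at 60.8% in siFBL, 65.5% in siNOP56 and 57.2% in siCTRL HEK293T cells at 24 h. PIH1D1 in HEK293T was at 238% in siFBL, 260% in siNOP56 and 326% in siCTRL at 24 h, RUVBL1 at 255%, 253% and 200%, and TAF9 at 261%, 243% and 217%, the groups in the same order. RUVBL2 was at 128% in siFBL, 127% in siNOP56 and 96.3% in siCTRL, and ZNHIT3 at 118%, 107% and 111%. RPAP3, whose 3′ UTR is the longest, was at 123% in siFBL, 120% in siNOP56 and 85.4% in siCTRL at 24 h. In C4-2 at 12 h PIH1D1 was at 154% in siFBL and 159% in siCTRL, RUVBL1 at 203% and 204%, and RPAP3 at 144% and 159%.

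These percentages are shares of each library, with no spike-in, so a value above 100% is a larger share of the RNA in the library and does not give molecules per cell; the labels do not say how transcription was stopped. A difference in slope (log2 CPM per hour) between knockdown and siCTRL was called for 0 of 8 members in C4-2 and in HEK293T by edgeR, with 0 at an unadjusted p below 0.05 and 0 by DESeq2. The share of all genes called for slope was 0.00427% in C4-2 (1 gene) and 0 with either siRNA in HEK293T, so the design gave almost no calls for any gene. PIH1D1 in HEK293T with siFBL, for example, had a slope difference of -0.02 log2 per hour (edgeR adjusted p = 1).

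SLAM-seq marks RNA made during labelling with T-to-C changes in the reads, so the share of T>C reads left after the chase follows old RNA. The hour in the file header differed from the labelled hour in 12 of 16 libraries, so no course over the hours is given; siFBL was set against siCTRL over 8 libraries each, with the labelled hour as a term of the fit. The T>C share of whole libraries ran from 5.01% through a median of 24.0% to 54.5% in siFBL, and from 10.0% through 27.6% to 58.4% in siCTRL; the 2 siCTRL libraries labelled 0 h were at 58.4% and 10.0%. Set by the hour in the header, with 2 libraries a group, the library share was 54.5% and 54.3% in siFBL against 58.4% and 58.3% in siCTRL at 0 h, and 29.7% and 29.5% in siFBL against 34.1% and 33.6% in siCTRL at 6 h. It was 18.4% and 18.0% in siFBL against 21.6% and 21.3% in siCTRL at 12 h, and 5.01% and 5.17% in siFBL against 10.0% and 10.1% in siCTRL at 24 h. Libraries with the same hour in the header thus lay close together, and those with the same labelled hour did not. Of the 8 members 6 passed the read filter. ZNHIT3 had 0 to 19 reads and TAF9 0 to 36 reads per library, every read with a T>C change, and both were left out of the tests.

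Pooled over the hours, the T>C shares of siFBL and siCTRL overlap for every member. The pooled ranges span the whole chase, so this overlap does not compare the siRNAs. Set by the hour in the header, some pairs of libraries of the 6 tested members did not overlap, mostly with siFBL lower. RUVBL1 at 0 h, for example, was at 72.3% and 75.2% in siFBL against 85.8% and 82.9% in siCTRL. Only RPAP3 at 6 h (26.5% and 39.8% in siFBL against 23.1% and 23.5% in siCTRL) and NUFIP1 at 12 h (26.7% and 46.8% against 14.5% and 8.47%) were higher. The share of the whole library was also lower in siFBL at each header hour. How often the pairs of other genes did not overlap was not counted. RUVBL1 ran from 6.03% through a median of 35.8% to 75.2% in siFBL, and from 4.68% through 42.3% to 85.8% in siCTRL. RUVBL2 ran from 4.47% through 37.2% to 64.2% in siFBL, and from 2.92% through 50.8% to 72.0% in siCTRL. PIH1D1 had the narrowest range, 3.44% through 28.3% to 46.4% in siFBL, and 6.08% through 28.2% to 53.5% in siCTRL. RPAP3 ran from 2.18% through 16.7% to 74.4% in siFBL and from 0% through 19.5% to 85.0% in siCTRL, NUFIP1 from 0% through 17.6% to 71.6% in siFBL and from 1.52% through 14.0% to 96.0% in siCTRL, and ZNHIT6 from 1.004% through 15.0% to 87.7% in siFBL and from 0.667% through 20.4% to 92.3% in siCTRL. The log2 difference in share, relative to the share of the whole library, was -0.01 (SE 0.54) for ZNHIT6, 0.43 (SE 0.69) for NUFIP1, 0.09 (SE 0.22) for RUVBL1, -0.06 (SE 0.27) for RUVBL2, 0.10 (SE 0.16) for PIH1D1 and 0.28 (SE 0.61) for RPAP3. By edgeR 0 members were called (0 at an unadjusted p below 0.05), beside 0% of 10904 genes. These errors come from the fit with the labelled hour. With the hour in the header as the term instead, an alternative chosen after seeing the data, the SE of the 6 members was smaller (0.09 for PIH1D1 and 0.14 for RUVBL1, for example), the differences ran from -0.10 for RUVBL2 to 0.30 for RPAP3, and 0 members and 10 genes were called.

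Total SLAM-seq reads gave 0 calls among the 6 members by edgeR (RUVBL2 at an unadjusted p below 0.05, and 0 by DESeq2), beside 1.13% of 13169 genes. RUVBL2 averaged 19.9 ± 8.75 CPM in siFBL and 13.8 ± 4.40 CPM in siCTRL (SD, n = 8 each), a log2 difference of 0.47 (SE 0.21, edgeR adjusted p = 0.32). PIH1D1, lower in the C4-2 time course, averaged 77.8 ± 6.76 CPM in siFBL and 83.1 ± 6.28 CPM in siCTRL (log2 -0.09). NUFIP1 averaged 2.89 ± 1.304 CPM in siFBL and 3.53 ± 1.27 CPM in siCTRL (log2 -0.37, edgeR adjusted p = 0.598), on 19 to 195 reads per library. The siFBL libraries labelled 0 h replicate 2 and 12 h replicate 2 were highest for RUVBL2, at 33.8 and 32.9 CPM; both have 24 h in the header, where the siCTRL libraries were at 9.63 and 10.2 CPM. With the header hour in the fit RUVBL2 had a log2 difference of 0.47 (edgeR adjusted p = 0.131), and 0 members and 1748 genes were called. The counting intervals overlap the 3′ UTRs of the genes, for example chr13:44939249-44941205 on the minus strand for NUFIP1, which holds its 3 windows printed above, and chr19:49446298-49446381 on the minus strand for PIH1D1 (hg38).

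**Figure D5:**
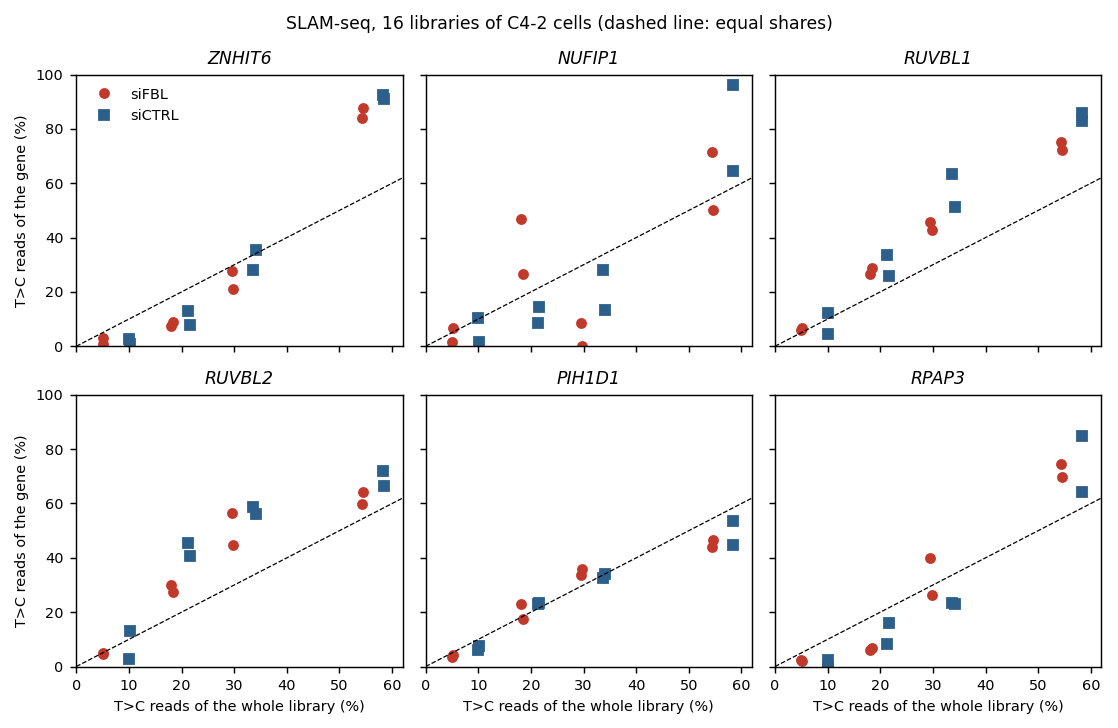
Share of reads with a T>C change (percent, vertical axis) for the 6 tested members against that of the whole library (percent, horizontal axis) in the 8 siFBL and 8 siCTRL SLAM-seq libraries; the dashed line marks equal shares. The siFBL and siCTRL ranges, pooled over the hours, overlap for every member. They span the whole chase, so this overlap does not compare the siRNAs at the same hour. PIH1D1 lies between 3.44% and 46.4% in siFBL and between 6.08% and 53.5% in siCTRL.

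RUVBL1 and RUVBL2 were examined for shared promoter letters because the 2 ATPases assemble together. In RefSeq promoter windows (GRCh38.p14, from 250 bases before to 50 after the start), 7 of 8 members matched, PIH1D1 not being listed, with 10 windows in all. Only the 250 bases before the start were searched for motifs. The CCAAT box (ATTGG on either strand) was in 6 of the 10 windows, against 32.0% of 35116 windows, and in both ATPases. These windows belong to RPAP3, ZNHIT3, RUVBL1 and RUVBL2 only, since each ATPase was counted with 2 windows. The E-box CACGTG was in 1 of 10 (TAF9), against 6.34% of all windows, and GCGGGAAA, CCGGAAGT and TGACGTCA were in none of the 10. The 120 bases just before the start run 5′ to 3′ on the transcribed strand with the CCAAT box in capitals:
RUVBL1, chr3:128123813-128123932, minus strand: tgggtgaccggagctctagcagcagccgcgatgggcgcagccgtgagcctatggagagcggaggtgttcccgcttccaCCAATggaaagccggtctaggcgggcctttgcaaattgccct
RUVBL2, chr19:48993328-48993447, plus strand: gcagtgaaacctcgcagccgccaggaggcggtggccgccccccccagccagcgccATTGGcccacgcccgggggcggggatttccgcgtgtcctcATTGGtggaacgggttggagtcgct

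RUVBL2 holds 2 boxes in this stretch and RUVBL1 holds 1, on the opposite strand.

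Other genes of the pathway were counted from lists. Beside the counts in C4-2 at 0 h stand the 15.1% of expressed genes called lower there, and beside a count at 12 h stand 22.1%. In C4-2 at 0 h the HSP90 system, which powers R2TP, had 4 of 9 genes lower and none higher, with the co-chaperone PTGES3 at a log2 difference of -0.71 (SE 0.13, edgeR adjusted p = 0.0028) and HSP90AA1 at -0.69 (0.0195). The list median was -0.42, against -0.26 for the 10027 expressed genes. Of the TTT complex, which hands kinases to R2TP through PIH1D1, 2 of 3 genes were lower at 0 h and 3 of 3 at 12 h, with TELO2 at -1.21 (SE 0.16, edgeR adjusted p = 0.000115) and TTI1 at -0.92 (0.000661) at 0 h. Of the 21 genes of the INO80, SRCAP and TIP60 complexes, which share the RUVBL ATPases, 4 were lower, with YEATS4 at -1.01 and EP400 at -0.55, and of the 6 H/ACA genes 2 were lower, DKC1 at -0.57 and NAF1 at -0.75. Of the 7 release and late factors 2 were lower (the exporter XPO1 at -0.84 and NOLC1 at -0.58), of the box C/D core 1 of 4 (FBL itself), of 16 TAF subunits 1 (TAF9B), and none of the 7 prefoldin-like genes and the 3 other zinc finger HIT genes. None of these lists had a gene called higher at 0 h. With total counts alone C4-2 values are higher by 0.253 at 0 h and 0.213 at 12 h, as given above, and the lists were not recounted there.

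In HEK293T at 24 h, 12.2% of the 10358 expressed genes were called higher and 6.31% lower with siFBL, and 4.96% higher and 1.64% lower with siNOP56. With siFBL the HSP90 system had 2 of 9 genes higher, HSPA8 at a log2 difference of 1.17 (SE 0.26, edgeR adjusted p = 0.00733) and FKBP4 at 0.52 (0.0362), and the prefoldin-like module, which binds R2TP in the larger PAQosome, had 3 of 7 higher, with URI1 at 0.74 (0.00293), UXT at 0.64 (0.0305) and PFDN2 at 0.47 (0.0406). DKC1 was at 1.11 (edgeR adjusted p = 0.0104) and MORF4L1 at 0.56 (0.00268), while XPO1 was lower at -0.67 (0.0126), and neither the TTT complex nor the TAF subunits had a call. With siNOP56, HSPA8 was at 1.06 (edgeR adjusted p = 0.0286), FKBP4 at 0.60 (0.0374), DKC1 at 1.06 (0.0294), ACTL6A at 0.50 (0.0384) and NOLC1 at 0.52 (0.0241), and no prefoldin-like gene was called. The effect at 0 h was lower in C4-2 than in HEK293T for TELO2 (-0.93, edgeR adjusted p = 0.000491), TTI1 (-0.69, 0.0234), DKC1 (-1.21, 6.02e-05) and NOP58 (-0.92, 0.00368). Of the chromatin subunits SRCAP (-0.81), YEATS4 (-0.59) and ACTL6A (-0.71) were also called lower. No other gene of the TTT, H/ACA or chromatin lists, whose sizes are given above, was called for this difference. Beside these stand 4.55% of all genes called in that direction with TMM. With total counts alone 60.4% of the called genes had the C4-2 effect higher. In the RIP, 6 of 9 HSP90 genes were higher and 2 lower, with FKBP4 at 1.42 and AHSA1 at 1.496, 5 of 7 prefoldin-like genes were lower with UXT at -2.91, and all 3 other zinc finger HIT genes were lower with ZNHIT1 at -2.84. The chromatin subunits split evenly, 9 higher and 9 lower of 20, with TRRAP at 3.62 and EP400 at 3.10; the TAF subunits had 10 higher and 6 lower of 16, with TAF1 at 2.83. Beside these RIP counts stand 39.9% of 14967 genes called higher and 43% called lower. With total counts alone RIP values are lower by 0.942, and the lists were not recounted there. The splits into higher and lower therefore hold for TMM scaling only. In SLAM-seq no gene of any list was called.

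The genes whose levels followed the mean course of the 8 members most closely over the 40 time-course libraries were UBE2K, MCRS1, PRPSAP2, WDR46 and ANKRD13A. Their root mean square differences in centred log2 CPM were 0.107, 0.121, 0.130, 0.131 and 0.133, against a median of 0.451 over 8859 genes. The members themselves ran from 0.189 for RUVBL2 to 0.931 for NUFIP1, so they did not share a single course.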

How the data were processed

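Of 64 libraries, 60 were used: RIP, C4-2, HEK293T and SLAM-seq; 4 nanopore libraries were not analysed here. The RIP, C4-2 and HEK293T tables hold the deposited raw counts per gene; Trim Galore, TopHat2 2.1.1 and HOMER are named in the submitters' processing notes. The SLAM-seq files hold deposited read counts and T>C read counts per 3′ UTR interval and a CPM score; the file headers name slamdunk 0.4.3; the score was not used, and each gene was taken by its interval with most reads. Counts were tested with edgeR 4.0.16 in R 4.3.3 (TMM factors, filterByExpr, quasi-likelihood test) over all genes, with Benjamini-Hochberg adjusted p below 0.05 as the threshold. Each time-course table was fitted whole, so all groups shared the estimate of spread; slopes and the joint fit of both lines likewise. The SLAM-seq fits held siRNA and labelled hour; T>C read counts of intervals with at least 10 reads in every library were fitted with an offset of the interval's reads and the library's T>C share. DESeq2 1.42.0, RLE factors, total counts, no low-count filter, only the groups compared and leaving out each library were alternatives. Fits were tested on simulated data. Named genes are the 8 members, FBL and NOP56, up to 4 called genes of each pathway list by lowest adjusted p, and the 5 genes nearest in course; TAF9B and AK6 were added as neighbours of TAF9. Members and lists were chosen with earlier results of these data known. Columns of the C4-2 tables, numbered as replicates 1 and 2, could be matched to groups only and are called A and B. A replicate block and, for SLAM-seq, the header hour were further alternatives.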

Additional observations from a re-analysis of the deposited data

Results flagged for a closer look

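NUFIP1 was called for a difference in the siFBL effect between the 2 lines at 0 h: the C4-2 effect minus the HEK293T effect was -1.11 (SE 0.30, edgeR adjusted p = 0.0234). It was at 11.2 and 12.7 CPM in siFBL, against 20.7 and 20.4 CPM in siCTRL C4-2 cells, and at 31.5 and 39.0 CPM in siFBL, against 24.0 and 25.5 CPM in siCTRL HEK293T cells. Both siFBL libraries were lower than siCTRL in C4-2 and both were higher in HEK293T, where the difference was not called by itself. The call was lost without some single HEK293T libraries, as given with the comparison of the lines. Cell line, table and depth cannot be told apart in it.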

How the results depend on the processing

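Of 2063 member values under alternatives, 1942 stayed on the same side of the threshold, 140 of them with the other sign though called under neither setting, 31 gained a call, 90 lost one, and none that was called changed sign. Without one library, the number of members called ran from 0 to 3 for the difference between lines, 1 to 2, 0 to 0, 0 to 1 and 1 to 5 in C4-2 at 0, 3, 6 and 12 h, 0 to 0, 0 to 1, 0 to 2 and 1 to 4 in HEK293T siFBL and 0 to 1, 0 to 0, 0 to 2 and 0 to 2 in siNOP56 at 0, 6, 12 and 24 h, 7 to 8 in the RIP, and was 0 for slopes, siFBL against siNOP56 and SLAM-seq. DESeq2 called 2 members for the difference between lines (TAF9 gained), 3 in C4-2 at 0 h (RUVBL1 gained, also with RLE factors), 1 at 3 h, 1 in each HEK293T knockdown at 0 h (TAF9), and 3 and 5 with siFBL at 12 and 24 h (PIH1D1 and RUVBL1 gained). With no filter the counts were 2 between lines, 1 in C4-2 at 3 h, 0 and 2 with siNOP56 at 6 and 24 h. RLE factors and total counts gave 1 in C4-2 at 3 h, and total counts 1 with siFBL at 6 h and 1 with siNOP56 at 24 h. Only the groups compared gave 0 in C4-2 at 6 h and 0 in HEK293T at 6, 12 and 24 h with either siRNA. Over all genes, DESeq2 called 4015 in C4-2 at 0 h (edgeR 1988), 778 and 1629 with siFBL at 0 and 6 h in HEK293T (edgeR 260 and 990), 208, 441, 762 and 1309 with siNOP56 at 0, 6, 12 and 24 h (edgeR 28, 102, 228 and 794), and 647 for total SLAM-seq reads (edgeR 149, 600 with no filter and, as alternatives chosen after seeing the data, 417 with the T>C share of the library and 1748 with the header hour in place of the labelled hour). The groups compared alone gave 827 and 1352 in C4-2 at 6 and 12 h (all groups 2122 and 3144) and 0 to 5 in HEK293T. Between compared groups at the same hour, the deviations of same-numbered HEK293T libraries correlated at -0.017 to 0.101, and those of RIP and input at 0.019. The correlation was not computed between hours of the same siRNA, so whether the number ties those libraries was not tested. The replicate block gave 2 members with siFBL at 0 h, and 1 and 2 with siNOP56 at 0 and 6 h, and 861, 1981 and 2490 genes with siFBL at 0, 6 and 12 h and 140, 388, 836 and 1485 with siNOP56. The C4-2 columns could not be tied to single samples, but their names hold replicate numbers; a replicate block on these, chosen after seeing the data, gave 3 members at 3 h (PIH1D1 gained), 2 at 12 h (RUVBL1 gained) and 2 for the difference between lines (TAF9 gained), with correlations of same-numbered deviations of -0.141 to 0.012.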
